A study of Homo sapiens with 6 samples.

Results

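The 9 genes described here encode the small MAF proteins MAFF, MAFG and MAFK, their partners NFE2L1, NFE2L2, NFE2L3, BACH1 and BACH2, and KEAP1. They were taken by symbol from a table of 63140 genes, and each symbol matched 1 gene. The family was chosen by the rise of MAFF in CPM (depth-scaled counts) in the same libraries, so the values of MAFF are given as a description with no test. The other 8 genes entered by family and not by their own values, but with those values known, and nothing independent supports their direction.

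The libraries came from HEK293, an established human cell line of embryonic kidney origin, grown with fetal bovine serum. Confluent cells were given 100 nM GSK-A1, an inhibitor of phosphatidylinositol 4-kinase alpha (PI4KA), for 24 h, or the solvent DMSO. PI4KA makes phosphatidylinositol 4-phosphate at the plasma membrane. Each group held 3 libraries labelled as biological replicates. The p-values therefore weigh the difference between the groups against the spread between these samples of 1 line under 1 compound.

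Small MAF proteins bind DNA through a basic leucine zipper but lack an activation domain. As pairs of small MAFs they repress, whereas with an NRF protein (NFE2L1, NFE2L2 or NFE2L3) they activate genes with antioxidant response elements, and with BACH1 or BACH2 they repress such genes. KEAP1 holds NFE2L2, also called NRF2, in the cytoplasm and presents it to a CUL3 ubiquitin ligase until oxidants or electrophiles modify KEAP1. BACH1 releases DNA when heme binds it.

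Library totals ran from 33040178 to 47777233 counts. GSK-A1 replicate 2 stood somewhat apart, with a correlation of log2 CPM of 0.995 and 0.994 to its group mates against 0.997 between the other two. Of 16754 genes that passed the filter on low counts, 22.9% were called at an edgeR adjusted p under 0.05, 12.0% higher and 10.9% lower with GSK-A1, and 40.5% had groups that did not overlap in CPM. Without DMSO replicate 1, 2 or 3 the 3835 called genes became 2163, 2213 and 2206. Of 7 genes known from HEK293 cells, 6 passed the filter, NEFM did not, and 10 markers of blood, endothelial, liver, fibroblast and keratinocyte cells were all below it, with at most 38 counts over the 6 libraries.

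Of the members with higher values under GSK-A1, 3 promoters are printed because they held a full CRE or an AP-1 site, so they are not typical of the rest, each as the 250 bases before a RefSeq start (build GRCh38.p14). RefSeq windows of 300 bases (250 before and 50 after a start) were found for 8 of the 9 genes, 14 windows in all, and none was at hand for MAFK. Each was searched on both strands for the cyclic AMP response element (CRE, TGACGTCA), the AP-1 site (TGANTCA), the core of the antioxidant response element (ARE, TGACNNNGC), the half-site of the MAF recognition element (TGCTGA, in 17.3% of all windows), the EGR site (GCGNGGGCG), the E-box (CACGTG) and the CArG box. Capitals mark every match on either strand. The CRE and the ARE core share the letters TGAC, but no matches overlapped in the stretches shown.
MAFF, chr22:38201744-38201993, plus strand: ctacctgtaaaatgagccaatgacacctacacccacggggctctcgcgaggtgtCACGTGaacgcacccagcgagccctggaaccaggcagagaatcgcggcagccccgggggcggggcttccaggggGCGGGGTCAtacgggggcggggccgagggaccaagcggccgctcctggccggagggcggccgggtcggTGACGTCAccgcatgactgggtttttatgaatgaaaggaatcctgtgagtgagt
BACH2, chr6:90296844-90297093, minus strand: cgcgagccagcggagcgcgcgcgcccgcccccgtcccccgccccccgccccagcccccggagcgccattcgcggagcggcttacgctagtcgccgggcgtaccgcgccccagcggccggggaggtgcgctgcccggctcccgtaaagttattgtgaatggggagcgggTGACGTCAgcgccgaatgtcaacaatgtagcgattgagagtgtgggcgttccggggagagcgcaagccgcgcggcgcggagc
BACH1, chr21:29298672-29298921, plus strand: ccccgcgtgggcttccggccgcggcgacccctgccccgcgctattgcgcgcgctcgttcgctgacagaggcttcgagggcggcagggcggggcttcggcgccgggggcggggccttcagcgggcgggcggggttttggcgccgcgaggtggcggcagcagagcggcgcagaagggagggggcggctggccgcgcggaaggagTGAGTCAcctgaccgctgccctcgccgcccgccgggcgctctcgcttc

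The MAFF stretch held an E-box, an ARE core on the opposite strand (GCGGGGTCA) and a full CRE, the last at 54 to 47 bases before the start. BACH2 also held a full CRE, at 82 to 75 bases before its start. A CRE was found in 1.85% of the 35116 RefSeq windows, an E-box in 7.26% and an ARE core in 13.3%. BACH1 held the AP-1 site TGAGTCA, a motif found in 7.71% of windows. The second KEAP1 window held 2 ARE cores. Each KEAP1 window and the second BACH1 window held an EGR site, which 9.43% of windows held. The MAF half-site was found in 4 of the 14 windows, those of NFE2L3 and BACH2 and the second of NFE2L1 and of BACH1. No CArG box, present in 1.29% of windows, was found in the 14 windows. Neither a CRE nor an AP-1 site was found in the MAFG window, which held only an E-box, or in the other MAFF and BACH1 windows, and the NFE2L2 windows held none of the 7 motifs. A match is a string of letters, and binding was not measured here.

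MAFF (ENSG00000185022, chr22:38200767-38216511, plus strand) was low in DMSO and higher in every GSK-A1 library. It had 65, 50 and 50 counts in DMSO replicates 1 to 3 and 280, 242 and 226 in GSK-A1 replicates 1 to 3, which is 1.36, 1.10 and 1.51 CPM against 6.01, 7.09 and 6.27 CPM. The lowest GSK-A1 library lay well above the highest DMSO library. The means were 1.32 ± 0.21 and 6.46 ± 0.56 CPM (SD, n = 3), a fitted 4.92-fold difference (log2 fold change 2.30 ± 0.13, SE), which ranked 6 among the rises of all genes tested. In bulk RNA, more RNA per cell and more cells with the RNA cannot be told apart, here or for the genes that follow. Its mean level exceeded that of only 30.9% of the genes tested, so MAFF remained a scarce transcript for all its change. Over 11 other ways of fitting, the log2 fold change of MAFF lay between 2.18 and 2.39.

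The other small MAFs, which are far more abundant than MAFF in these cells, rose as well. MAFK (ENSG00000198517, chr7:1530714-1543043, plus strand) measured 25.8, 25.7 and 25.5 CPM under DMSO, and 38.3, 37.0 and 38.6 CPM under GSK-A1. MAFK replicates were tight and the groups did not overlap (log2 fold change 0.57 ± 0.05, SE; edgeR adjusted p = 6.31e-07). The antisense neighbour TMEM184A shares 18.1% of MAFK's exonic bases, at a level of 1.23 ± 0.25 CPM under DMSO and 1.46 ± 0.10 CPM under GSK-A1 (SD, n = 3), so their reads cannot be told apart there if strand was not used in counting. MAFG (ENSG00000197063, chr17:81918270-81927714, minus strand) measured 66.0, 54.9 and 60.5 CPM under DMSO against 80.9, 77.4 and 84.0 CPM with GSK-A1. MAFG varied more among its DMSO libraries than MAFK did, yet its groups did not overlap either (0.42 ± 0.06; edgeR adjusted p = 2.11e-04).

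**Figure D1:**
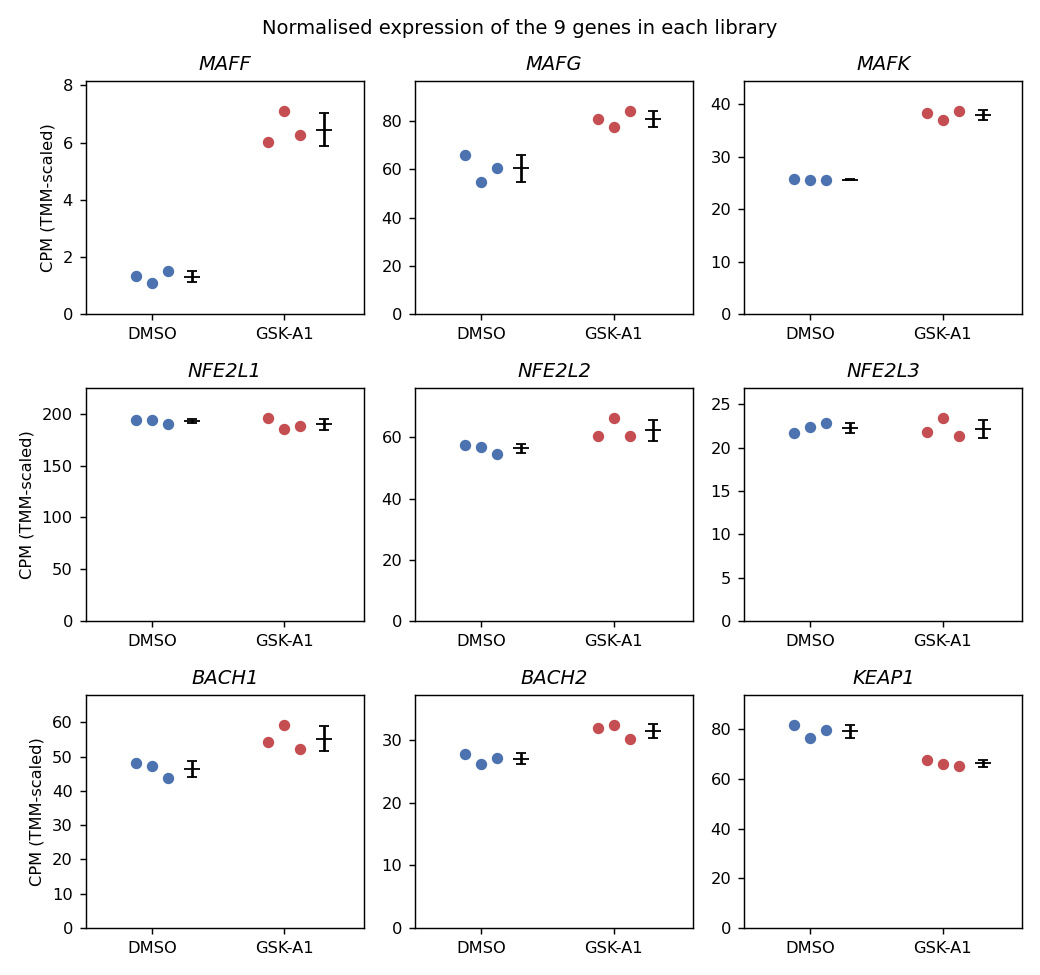
TMM-scaled CPM of each of the 9 genes (1 panel per gene, y axes from 0 and different between panels) in 3 DMSO (blue) and 3 GSK-A1 (red) libraries; black marks are the mean ± SD. The groups are clear of each other for the 3 small MAFs, NFE2L2, BACH1, BACH2 and KEAP1, and overlap for NFE2L1 and NFE2L3.

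Levels of different genes were compared as CPM per kilobase of the longest GENCODE 29 transcript. On this scale the 3 small MAFs summed to 21.2, 18.9 and 20.0 in DMSO replicates 1 to 3 and to 29.3, 28.5 and 30.1 in GSK-A1 replicates 1 to 3, so the summed level was 1.46-fold higher with GSK-A1. MAFF made up 2.01% ± 0.26 of this sum under DMSO and 6.73% ± 0.74 under GSK-A1 (SD, n = 3). Its gain was thus a small portion of the whole: of the added small MAF level, MAFG carried 43.5%, MAFK 39.6% and MAFF 16.9%. MAFG remained the main small MAF, at 59.9% ± 2.0 of the sum with DMSO and 54.7% ± 0.8 with GSK-A1. MAFK kept nearly the same portion, 38.1% ± 2.1 and 38.5% ± 0.4. With the mean transcript length in place of the longest, the portion of MAFF was 1.76% under DMSO and 5.96% under GSK-A1. That of MAFG was then 67.2% and 62.3%, and that of MAFK 31.0% and 31.8%. The portions of the added level were taken with the longest transcript only, and they depend on the length used.

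**Figure D2:**
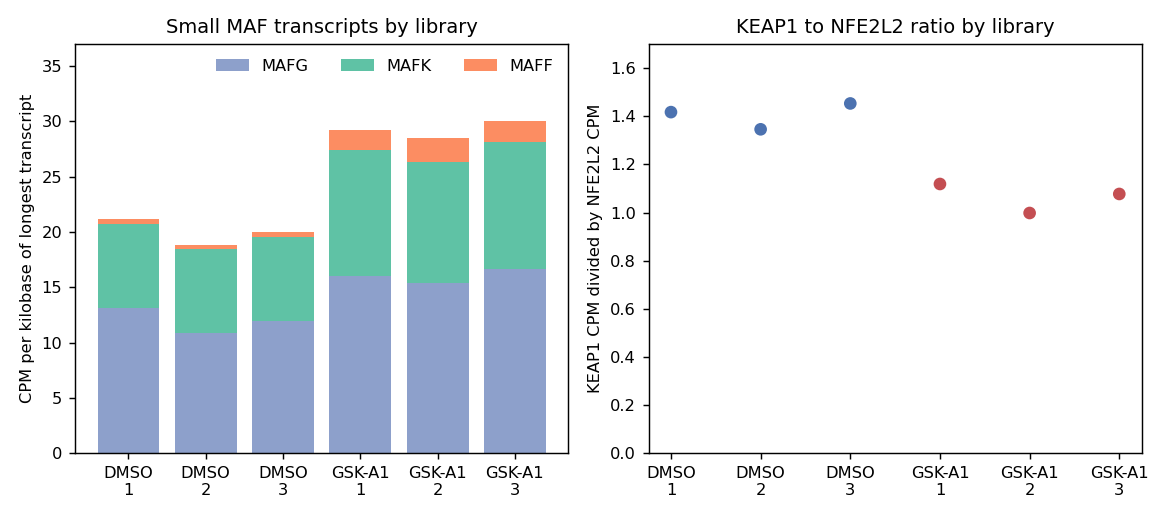
Left, stacked CPM per kilobase of MAFG, MAFK and MAFF in each library; right, CPM of KEAP1 divided by CPM of NFE2L2 in each library (DMSO blue, GSK-A1 red). The small MAF sum is 18.9 to 21.2 with DMSO and 28.5 to 30.1 with GSK-A1, and the ratio is 1.35 to 1.45 with DMSO and 0.998 to 1.12 with GSK-A1.

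Among the NRF partners, 1 of 3 was called. NFE2L2 (ENSG00000116044, chr2:177227595-177392697, minus strand), the activator of antioxidant genes, had 57.6, 56.8 and 54.7 CPM with DMSO and 60.4, 66.2 and 60.3 CPM with GSK-A1. The groups were separate by a narrow margin, and GSK-A1 replicate 2 was the highest library. The rise was small (log2 fold change 0.14 ± 0.05, SE; edgeR adjusted p = 0.0365). The NFE2L2 call was lost without DMSO replicate 1 (adjusted p = 0.0783), 2 (0.107) or 3 (0.164) and under upper-quartile factors (0.108). Without GSK-A1 replicate 2 it was kept, at 0.10 (edgeR adjusted p = 0.0330). LOC100130691 shares 17.6% of NFE2L2's exonic bases on the same strand. Its level fell from 5.14 ± 0.44 to 4.17 ± 0.29 CPM (SD, n = 3; edgeR adjusted p = 0.0465), opposite in direction to NFE2L2.

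NFE2L1 (ENSG00000082641, chr17:48048329-48061487, plus strand), an endoplasmic reticulum protein that is cut and freed to induce proteasome genes, was the most abundant member. Its values were 193.9, 194.1 and 190.5 CPM under DMSO, against 195.7, 185.4 and 188.7 CPM with GSK-A1. These ranges overlapped (log2 fold change -0.02 ± 0.04; edgeR adjusted p = 0.699). NFE2L3 (ENSG00000050344, chr7:26152240-26187125, plus strand), a less studied paralog, had 21.7, 22.4 and 22.8 CPM with DMSO and 21.8, 23.4 and 21.4 CPM with GSK-A1. Its difference was smaller than its standard error (-0.0072 ± 0.06; edgeR adjusted p = 0.943) and its sign depended on the fit. The pseudogene NFE2L3P1 carries 5.47% of the 50-base words of NFE2L3, whose reads are to that degree uncertain.

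Both BACH repressors rose. BACH1 (ENSG00000156273, chr21:29194071-29630751, plus strand), the heme-sensitive repressor, measured 48.2, 47.3 and 43.8 CPM under DMSO against 54.3, 59.2 and 52.1 CPM with GSK-A1. All GSK-A1 libraries were above all DMSO libraries (log2 fold change 0.25 ± 0.05, SE; edgeR adjusted p = 0.00346), and without GSK-A1 replicate 2 the value was 0.20. BACH2 (ENSG00000112182, chr6:89926529-90296908, minus strand), known mainly from lymphocytes, had 27.8, 26.1 and 27.2 CPM with DMSO and 31.9, 32.4 and 30.2 CPM with GSK-A1. Its groups did not overlap (0.22 ± 0.05; edgeR adjusted p = 0.00543). On the per-length scale BACH1 made up 73.1% ± 1.1 of the BACH sum under DMSO and 73.5% ± 0.7 under GSK-A1 (SD, n = 3), so their balance differed by less than the spread between replicates.

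KEAP1 (ENSG00000079999, chr19:10486120-10503741, minus strand), the sensor that restrains NFE2L2, was the member that fell. Its values were 81.6, 76.4 and 79.5 CPM under DMSO, against 67.5, 66.1 and 65.0 CPM with GSK-A1. Every GSK-A1 library lay below every DMSO library (log2 fold change -0.26 ± 0.04, SE; edgeR adjusted p = 4.14e-04). Within a library, KEAP1 CPM divided by NFE2L2 CPM was 1.42, 1.35 and 1.45 with DMSO and 1.12, 0.998 and 1.08 with GSK-A1. This ratio was lower in each GSK-A1 library than in any DMSO library. That follows from the fall of KEAP1 and the rise of NFE2L2, each without overlap, and adds nothing to them.

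**Figure D3:**
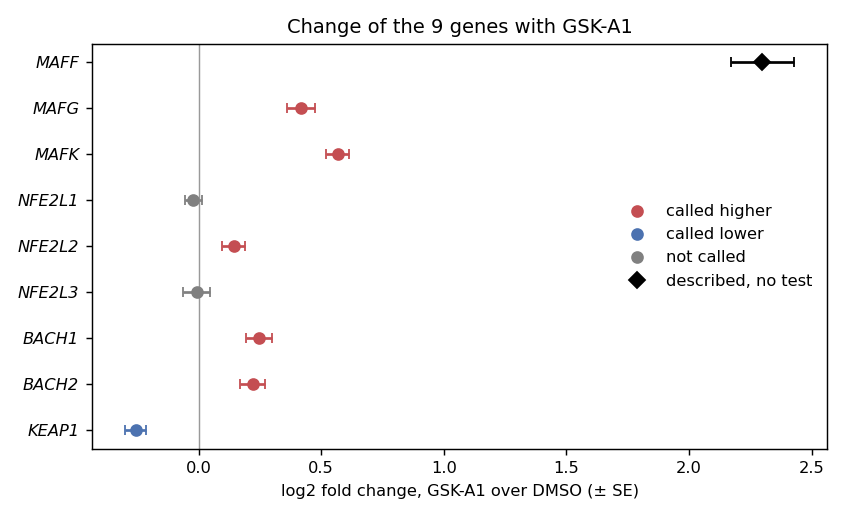
Log2 fold change of GSK-A1 over DMSO (x axis) with its SE for each of the 9 genes; red was called higher, blue called lower, grey not called, and the black diamond is MAFF, which is described without a test. MAFF lies at 2.30, the other values between -0.26 and 0.57.

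Of the 8 members other than MAFF, 5 were called higher, 1 lower and 2 not called, and 6 had groups that did not overlap. Since the genes were chosen with this comparison known, nothing is read from that count beside the 22.9% called and 40.5% not overlapping over all genes. By level per length in DMSO the order was NFE2L1 (40.4), KEAP1 (26.8), NFE2L2 (19.8), MAFG (12.0), BACH1 (8.05), MAFK (7.61), NFE2L3 (6.05), BACH2 (2.96) and MAFF (0.40). Only BACH1 and MAFK overlapped among neighbours in this order. In GSK-A1 libraries MAFK (11.3) stood above BACH1 (9.57) without overlap, while KEAP1 (22.0 to 22.9) and NFE2L2 (21.1 to 23.2) overlapped. These orders depend on the transcript length used: by mean transcript length BACH1 (33.7) stood above MAFG (24.7) in DMSO, NFE2L3 and BACH2 overlapped there, and KEAP1 (54.3 to 56.5) stayed above NFE2L2 (44.4 to 48.8) in GSK-A1 libraries. The order of MAFK and BACH1 was reversed by that length, with BACH1 (40.0) above MAFK (16.8) in GSK-A1 libraries without overlap.

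The summed small MAF level was also set against the summed level of the 5 NRF and BACH partners in each library. This ratio was 0.271, 0.243 and 0.264 with DMSO and 0.362, 0.347 and 0.381 with GSK-A1. Summed small MAF RNA was therefore larger relative to that of its listed partners in each GSK-A1 library, with either choice of length. This follows largely from the values above, where each small MAF was higher and NFE2L1, the most abundant partner, changed little. The sum includes MAFF, which was chosen for its rise.

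Of short lists of genes whose proteins act on NFE2L2 or NFE2L1, 13.3% and 8.33% were called at the RNA level, against 22.9% of all genes. Of 15 genes for NFE2L2 degradation, 1 was called higher and 1 lower, around a median log2 fold change of 0.03 (over all genes -0.01). They were FBXW11, part of a second ubiquitin ligase for NFE2L2 (0.13 ± 0.04, SE; edgeR adjusted p = 0.0262), and SQSTM1, an autophagy receptor that binds KEAP1 (-0.12 ± 0.04; edgeR adjusted p = 0.0302). Both calls were lost when any 1 DMSO library or GSK-A1 replicate 1 was left out, that of FBXW11 also under upper-quartile factors and that of SQSTM1 also without a filter and with DESeq2. Over the 11 other fits the adjusted p of FBXW11 reached 0.105 and that of SQSTM1 0.157. CUL3, the scaffold of the KEAP1 ligase, named after its value was seen, had a mean of 89.2 ± 2.6 CPM under DMSO and 93.7 ± 5.0 CPM under GSK-A1 (SD, n = 3; edgeR adjusted p = 0.277). Of 12 genes for NFE2L1 processing, only DDI2, the protease that cuts NFE2L1, was called. It had 105, 105 and 111 CPM with DMSO and 125, 130 and 121 CPM with GSK-A1, with no overlap (0.23 ± 0.04; edgeR adjusted p = 8.31e-04). Without GSK-A1 replicate 2 the genes called were 4 of 15 and 2 of 12, and over all genes 4890 of 17399. These lists share BTRC and SYVN1, and SQSTM1 is also on the list of NFE2L2 targets below, so the lists are not separate.

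Among genes that NFE2L2 activates the number called varied with the fit, as it did over all genes. Of 30 listed, 28 passed the filter (GPX2 and AKR1B10 did not), 8 were called lower and 1 higher (32.1% called, against 22.9% of all genes, of which 10.9% lower), around a median of -0.06 on the log2 scale. The 9 calls shrank to 3 when DMSO replicate 1 was left out, and to 4 when GSK-A1 replicate 1, or else DMSO replicate 2 or 3, was. Over all genes the 3835 calls fell to 2163, 2213 and 2206 without DMSO replicate 1, 2 or 3. They fell to 2674 without GSK-A1 replicate 1. Under upper-quartile factors and without GSK-A1 replicate 2 the list had 11 calls, with 4027 and 4890 over all genes. HMOX1, which breaks down heme and is activated by NFE2L2 and repressed by BACH1, had 23.2, 17.1 and 19.9 CPM with DMSO and 13.6, 12.7 and 13.2 CPM with GSK-A1. Its DMSO libraries were spread, yet each was above all GSK-A1 libraries (-0.61 ± 0.10, SE; edgeR adjusted p = 9.68e-04). CBR1, a carbonyl reductase, fell by 0.21 ± 0.05 on the log2 scale (edgeR adjusted p = 0.00335). The glutamate-cysteine ligase subunits GCLC (0.02 ± 0.05; edgeR adjusted p = 0.791) and GCLM (-0.06 ± 0.06; 0.573), chosen after their values were seen, were not called. NQO1, also chosen so, was scarce, with 0.85 ± 0.13 CPM under DMSO and 0.51 ± 0.06 CPM under GSK-A1 (SD, n = 3; -0.71 ± 0.23, edgeR adjusted p = 0.0334), and its call was lost with DESeq2 and in every fit that left out a library. Over the 11 other fits the adjusted p of NQO1 reached 0.122.

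Among 10 genes that BACH1 represses, for heme, iron, cystine and glutathione handling, 4 were called lower (40%, against 10.9% of all genes) and 0 higher, around a median of -0.14 on the log2 scale. Besides HMOX1 they included FECH, which inserts iron into heme, at 69.1, 65.4 and 68.6 CPM with DMSO and 57.2, 61.1 and 55.5 CPM with GSK-A1. FECH fell without overlap between the groups (-0.23 ± 0.05, SE; edgeR adjusted p = 0.00233), and SLC48A1, a heme transporter, fell by 0.25 ± 0.05 on the log2 scale (edgeR adjusted p = 0.00265). The remaining call was SLC7A11, a cystine transporter (-0.18 ± 0.05, SE; edgeR adjusted p = 0.0130). The ferritin genes FTH1 (-0.08 ± 0.04; edgeR adjusted p = 0.189) and FTL (0.05 ± 0.04; 0.374), chosen after their values were seen, were not called. This list shares HMOX1, GCLM, SLC7A11, SRXN1, FTH1 and FTL with the NFE2L2 list, so the counts are not separate evidence.

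Proteasome genes, which NFE2L1 activates, showed few calls. Of 33 genes 1 was called higher and 3 lower, 12.1% against 22.9% of all genes, around a median of -0.01 on the log2 scale. PSME4, a proteasome activator, rose by 0.21 ± 0.04 (SE; edgeR adjusted p = 7.48e-04). PSMA7 (-0.18 ± 0.04; edgeR adjusted p = 0.00993) and PSMC3 (-0.15 ± 0.04; edgeR adjusted p = 0.0146) fell, calls that were lost without DMSO replicate 1, which left 1 gene called. Upper-quartile factors gave 8 called.

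**Figure D4:**
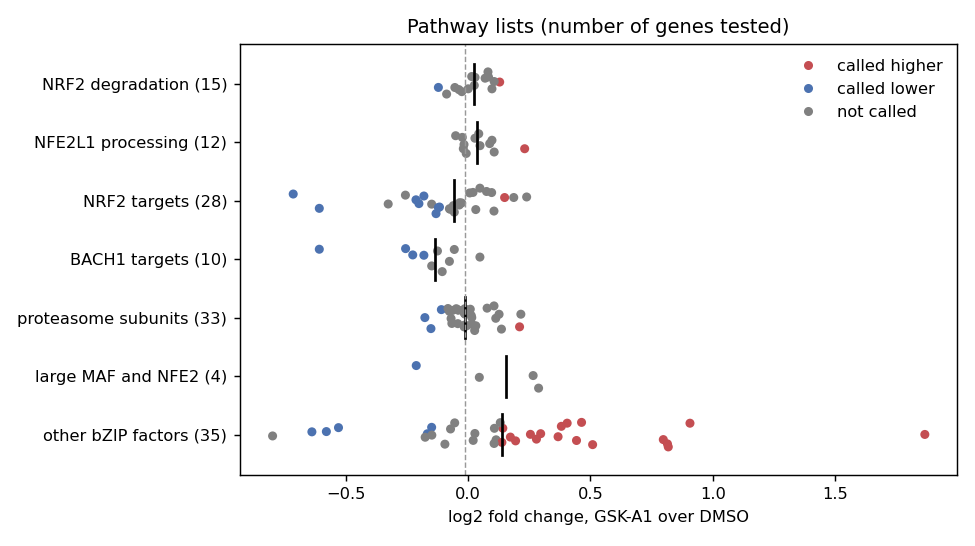
Log2 fold change of GSK-A1 over DMSO for each tested gene of 7 pathway lists (points; red called higher, blue called lower, grey not called), with the list median as a black bar and the median of all genes as a dashed line. The NRF2 and BACH1 targets have medians of -0.06 and -0.14, and the other bZIP factors 0.14.

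Other basic leucine zipper (bZIP) factors were listed to place the small MAFs among their wider family. Of 40 listed, 35 passed the filter (BATF, CREB3L1, CREB3L3, CEBPD and CEBPE did not), of which 18 were called higher and 5 lower, 65.7% in all against 22.9% of all genes, around a median of 0.14 on the log2 scale. FOS, an immediate early gene, measured 3.34, 3.65 and 3.86 CPM under DMSO against 12.9, 13.5 and 12.9 CPM with GSK-A1 (1.87 ± 0.08, SE; edgeR adjusted p = 1.65e-10). FOSL2, its relative, rose by 0.91 ± 0.05 (edgeR adjusted p = 2.99e-09) and ATF3, a stress-induced factor, by 0.82 ± 0.04 (edgeR adjusted p = 4.66e-10). The log2 fold change of MAFF, 2.30, was above that of each of these 35 genes, whose highest was FOS. MAFF was chosen for that rise, so its place above them is a description only.

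Of the large MAFs, which unlike small MAFs carry an activation domain, MAF fell from 32.7 ± 0.4 to 28.3 ± 1.3 CPM (SD, n = 3; log2 fold change -0.21 ± 0.05, SE; edgeR adjusted p = 0.00670), a call lost without GSK-A1 replicate 1 (adjusted p = 0.0607). MAFA (0.29 ± 0.16; edgeR adjusted p = 0.198) and NRL (0.05 ± 0.26; edgeR adjusted p = 0.923) were not called, and NFE2, the blood-cell relative of the NRF proteins, did not pass the filter.

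Likeness to MAFF was measured as the root mean square difference, over the 6 libraries, of log2 CPM taken relative to each gene's own DMSO mean. Among genes with a mean of at least 1 CPM over the 6 libraries, the nearest 5 were EGR1 (0.076), TNFRSF12A (0.20), C11orf96 (0.22), RHOB (0.28) and ACTBL2 (0.29). EGR1, an immediate early zinc finger factor, lay at 0.03, -0.14 and 0.11 in DMSO replicates 1 to 3 and at 2.20, 2.30 and 2.14 in GSK-A1 replicates 1 to 3. MAFF lay at 0.05, -0.24, 0.20, 2.16, 2.39 and 2.22 in the same order. EGR1 was picked for its closeness to MAFF in these libraries, so nothing is read from the order of its replicates. ACTBL2 met the limit of 1 CPM only through the GSK-A1 libraries (0.32 ± 0.10 CPM under DMSO and 1.87 ± 0.22 CPM under GSK-A1; SD, n = 3). The measure follows mainly the size of the rise, and with 6 libraries in 2 groups it is a description only.

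**Figure D5:**
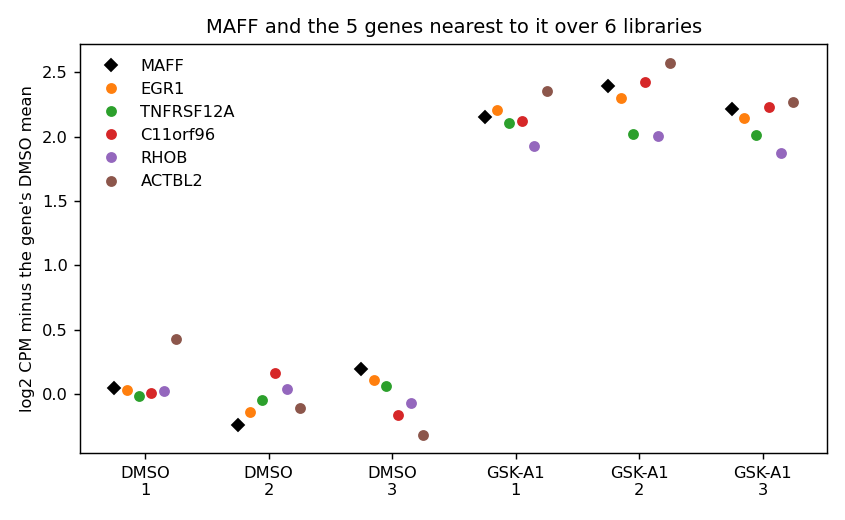
Log2 CPM minus the gene's own DMSO mean (y axis) in each of the 6 libraries (x axis) for MAFF (black diamonds) and the 5 genes nearest to it (coloured points, shifted sideways for clarity). All 6 genes lie between -0.32 and 0.43 with DMSO and between 1.87 and 2.58 with GSK-A1.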

How the data were processed

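Per the labels' protocols, libraries were made with a stranded TruSeq kit and sequenced on a HiSeq, and all carried the same batch label. The authors deposited whole-number read counts for each gene, not normalized. Per the submitters' processing notes, cutadapt 5.1, STAR 2.7.11b, featureCounts, Subread 2.1.1, DESeq2 1.38.0 and build GRCh38.p13 were used. The RNA selection step, annotation release and strand setting are not given in the sources used here.

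Genes were kept by filterByExpr (smallest count 10, smallest total 15), scaled by TMM and tested with the quasi-likelihood F test of edgeR 4.0.16 in R 4.3.3, with p-values adjusted by Benjamini-Hochberg over all genes tested and called under 0.05. SE is the log2 coefficient over the square root of F. The code was tested on simulated data. Coordinates and lengths came from GENCODE 29 on GRCh38 and promoters from RefSeq. Genes named were all members, up to 3 called genes per list by p-value, the large MAFs and 5 genes nearest MAFF; some genes under this rule are not reported here. Overlapping neighbours and genes said to be chosen or named after their values were seen fall outside it, as does SLC7A11. The members and lists were chosen with earlier results of these data known. Alternatives were RLE and upper-quartile factors, no filter, DESeq2 1.42.0, a replicate block, leaving out each library, and mean transcript length.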

Additional observations from a re-analysis of the deposited data

How the results depend on the processing

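The direction of MAFF, MAFG, MAFK, NFE2L1, NFE2L2, BACH1, BACH2 and KEAP1 was the same in all 11 other fits. The 6 called members other than MAFF became 5, through NFE2L2, under upper-quartile factors and without DMSO replicate 1, 2 or 3. The log2 fold change of NFE2L3 turned to 0.0015 without a filter, 0.0041 with DESeq2, and 0.0095 to 0.020 in the fits lacking the third DMSO, the first GSK-A1 or the third GSK-A1 library. Over all fits that left out 1 library it ran from -0.039 to 0.020. Medians turned under upper-quartile factors for NFE2L2 degradation (-0.016) and NFE2L1 processing (-0.0046), and for the proteasome without DMSO replicate 1 (0.01) or GSK-A1 replicate 3 (0.0027), within a leave-one-out range of -0.033 to 0.011. The cause was not tested. Leaving out 1 library gave 2163 to 4890 called genes. Of the called genes 52.3% were higher, against 33.3% under upper-quartile factors and 62.4% with DESeq2. With the replicate block 4127 genes and 6 members were called, and it changed no member's call. Same-numbered libraries deviated together little (correlations 0.011 to 0.032), although all 3 DMSO libraries correlated best with their own number. At 50 to 65 counts per DMSO library, MAFF is the member whose depth limits it most.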

Other observations

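The proline and acidic amino acid-rich bZIP factors DBP, HLF and TEF, outputs of the circadian clock, were singled out after their values were seen. All 3 fell with GSK-A1. TEF had 10.1, 10.5 and 10.5 CPM in DMSO replicates 1 to 3 and 6.48, 6.56 and 6.96 CPM in GSK-A1 replicates 1 to 3 (log2 fold change -0.64 ± 0.07, SE; edgeR adjusted p = 2.14e-05). DBP went from 12.5 ± 0.1 to 8.38 ± 0.44 CPM (SD, n = 3; -0.58 ± 0.07, edgeR adjusted p = 2.93e-05) and HLF from 3.63 ± 0.29 to 2.52 ± 0.17 CPM (-0.53 ± 0.12, edgeR adjusted p = 0.00391). DBP, HLF and TEF were each called in all 11 other fits. They do not stand for clock-linked bZIP factors as a whole. NFIL3, another such factor on the same list, also named after its value was seen, rose (0.51 ± 0.06, SE; edgeR adjusted p = 5.25e-05).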
